A study of Homo sapiens with 12 samples.

Results

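The baseline transcriptome of 22Rv1 was read from the 6 control libraries among the 12 libraries of a study that silenced 2 genes in this cell line. All libraries that the labels give as controls were taken, namely the 3 controls of the experiment with siRNA against ETS1 (called ETS1 controls) and the 3 controls of the experiment with siRNA against ZNF783 (called ZNF783 controls). Both groups are 22Rv1 cells grown in RPMI-1640 with fetal bovine serum, and total RNA was taken from both in the same way, per the labels. The sources used here name neither the agent given to the controls nor when the cells were harvested. The labels do not say whether the replicates were separate cultures. The p-values therefore set a difference only against the spread of these samples within groups, and that spread may be technical. They do not extend beyond these libraries. Each control group belongs to its own experiment. A difference between the groups is therefore one between 2 sets of libraries of 1 cell line, in which experiment and group cannot be told apart.

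22Rv1 was established from a xenograft of a human prostate tumour and is used as a model of castration-resistant prostate cancer. Luminal prostate cells respond to androgens, which switch on luminal genes such as KLK3, which encodes prostate-specific antigen. The pioneer factors FOXA1, HOXB13 and GATA2 open chromatin at prostate enhancers. ETS1 is a member of the ETS family of transcription factors, several of which act in prostate cancer, and ZNF783 is a zinc finger protein.

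Total counts ran from 29817308 to 41966577 in the ETS1 controls and from 14763408 to 17404100 in the ZNF783 controls. The depths of the groups therefore did not overlap. A floor of 3 counts corresponded to 0.0715 to 0.101 CPM in the former and 0.172 to 0.203 CPM in the latter. CPM are counts per 1e+06 counts of the library after TMM scaling (trimmed mean of M values), whereas TPM also divide each count by exon length before scaling to the same total and serve to compare different genes. Replicates lay close together, with a biological coefficient of variation of 0.0291 in the ETS1 controls and 0.0258 in the ZNF783 controls. With group in the fit, it was 0.0281 over the 6 controls and 0.0795 over all 12 libraries. Unless the fit of all 12 libraries is named, p-values below use the spread of the 6 controls alone. Spearman correlations across genes were 0.9943 to 0.9967 within groups and 0.9823 to 0.9848 between them. Genes are not independent replicates, and these correlations describe the libraries only.

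The targets of the study's siRNAs were read first. ETS1 was at or near 0 in the control libraries, with 0, 1 and 0 counts in the ETS1 controls and 1, 0 and 1 counts in the ZNF783 controls. All 6 values lie under the floor of 3 counts, so no level and no fold is given for it. ZNF783 (chr7:149262171-149297302, GRCh38) had 21.3, 21.97 and 22.7 CPM in the ETS1 controls and 32.9, 33.9 and 34.6 CPM in the ZNF783 controls. The groups did not overlap, with a log2 difference of 0.62 (SE 0.053, adjusted p = 6.52e-12) by edgeR's quasi-likelihood test. Its exons are overlapped by other genes over 29.5% of their length, and the counting did not use strand, so its level is uncertain.

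In the 6 libraries, 12616 of 19862 protein-coding genes with an exon length reached 1 TPM in every library, 9231 reached 10 TPM and 1858 reached 100 TPM. Another 1917 had 0 counts in all 6. Protein-coding genes held 97.3% to 97.4% of the counts. The 15 most abundant genes were led by TMSB10, which encodes an actin-sequestering thymosin, at 10289 TPM and by the elongation factor gene EEF1A1 at 5499 TPM. The others were the glycolytic enzyme gene GAPDH, the ATP synthase subunit gene ATP5F1B, the actin genes ACTG1 and ACTB, the elongation factor gene EEF2, the chaperone genes HSP90AB1 and CALR, the ribosomal protein genes RPS12, RPS2, RPL41, RPL8 and RPL13A, and CCND1. Their lowest mean was that of CALR at 2148 TPM. These 15 held 6.07% to 6.34% of all TPM in the ETS1 controls and 5.05% to 5.29% in the ZNF783 controls, ranges that did not overlap. These TPM levels carry no TMM factor, unlike CPM.

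CCND1, which encodes cyclin D1, the regulatory partner of CDK4 and CDK6, stood at 2905 TPM and was the only cell cycle regulator among these 15. It had 3303, 3215 and 3225 CPM in the ETS1 controls and 3189.7, 3221 and 3175 CPM in the ZNF783 controls. The groups overlapped, and the difference did not pass the test (log2 difference -0.024, SE 0.023, adjusted p = 0.398). Among its partners, CDK4 had a mean of 194 TPM and CDK6 of 98.2 TPM. Exons of CDK4 are overlapped by other genes over 43.2% of their length, so its level is uncertain. RB1, which encodes the pocket protein that CDK4 and CDK6 phosphorylate, had 70.9 TPM, and the CDK inhibitor genes CDKN1A, CDKN1B and CDKN2A had 367 TPM, 255 TPM and 35.9 TPM. The growth regulator gene MYC was present at 253 TPM.

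The libraries had the profile of a luminal epithelial prostate line. FOXA1 had 279 to 344 TPM over the 6 libraries and HOXB13 272 to 292 TPM. Among androgen-induced genes, KLK2, KLK3 and TMPRSS2 were much lower, with 17.1 TPM for KLK2, 14.5 TPM for KLK3 and 10.5 TPM for TMPRSS2. KLK4, a related kallikrein gene, had 385 TPM. Low levels did not hold for androgen-induced genes as a list. Of 33 such genes found in the counts, 28 reached 1 TPM in all 6 libraries. Their summed TPM ran from 4741 to 4818 in the ETS1 controls and from 4362 to 4407 in the ZNF783 controls. Among the keratins of luminal cells, KRT8 had 387 TPM, KRT18 309 TPM and KRT19 973 TPM. The adhesion genes CDH1 and EPCAM had 441 TPM and 121 TPM. Of 31 epithelial and luminal markers, 28 reached 1 TPM in all 6 libraries.

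Markers of other cell types ranged from absent to moderate. Of 17 mesenchymal markers 10 reached 1 TPM in all 6 libraries, with summed TPM of 129 to 134 in the ETS1 controls and 151 to 156 in the ZNF783 controls. Of 15 basal markers, 5 reached 1 TPM in all libraries, while the defining genes KRT5, KRT14 and TP63 had at most 1, 4 and 4 counts in any library. Of 18 leukocyte markers 1 reached 1 TPM in all 6, and summed leukocyte TPM ran from 4.08 to 4.52 in the ETS1 controls and from 6.13 to 7.16 in the ZNF783 controls. CD3E had 0 counts in every library, and the pan-leukocyte gene PTPRC had at most 11. Of 10 endothelial markers 1 reached 1 TPM in all 6. Summed endothelial TPM ran from 3.71 to 5.18 in the ETS1 controls and from 6.04 to 7.59 in the ZNF783 controls. The endothelial gene PECAM1 had at most 1 count. Of 10 fibroblast markers 2 reached 1 TPM in all 6. LUM, which encodes the matrix proteoglycan lumican, had 43.5 TPM and COL1A1 9.26 TPM, whereas COL1A2 and COL3A1 had 0.0541 and 0.209 TPM. In bulk RNA, fewer cells of a type and less RNA per cell cannot be told apart.

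Several neuroendocrine-associated genes were expressed on this luminal background. Of 23 neuroendocrine markers, 15 reached 1 TPM in all 6 libraries, while 5 were too low to test in the contrast below. VGF, which encodes a secreted neuropeptide precursor, had 825 TPM, PEG10 739 TPM and ENO2, the neuronal enolase gene, 158 TPM. The synaptic vesicle gene SYP had 56.3 TPM. CHGA, the chromogranin A gene, was low and variable at 2.37 TPM.

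**Figure D1:**
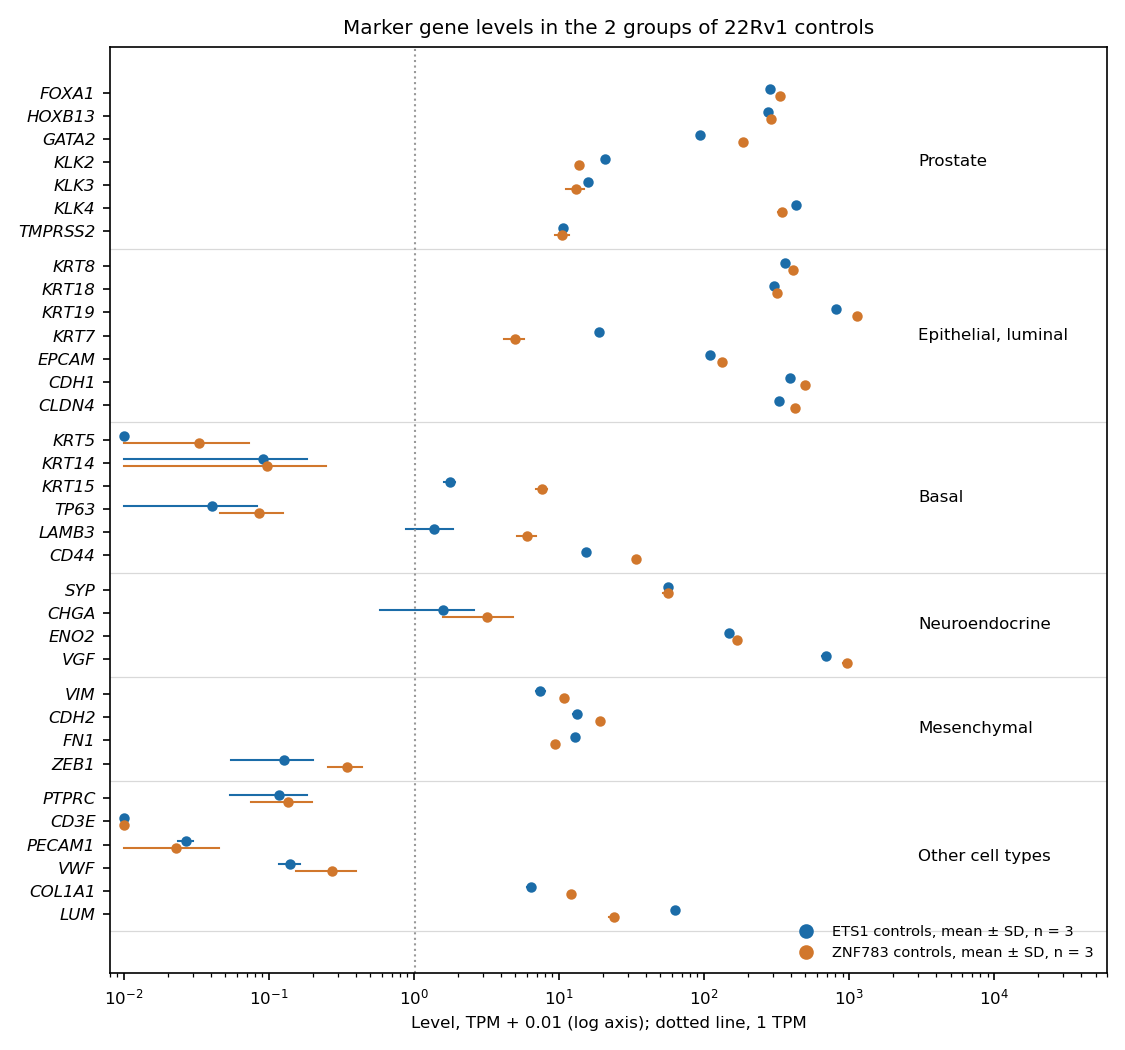
Levels of 34 marker genes in 22Rv1 control libraries, as TPM plus 0.01 on a log axis. Points are group means and bars the SD over 3 libraries per group. Luminal and androgen-induced genes lie mostly above 10 TPM, and KRT5, KRT14, TP63, PTPRC, CD3E and PECAM1 lie below 1 TPM.

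The contrast of the control groups was tested next, as ZNF783 controls minus ETS1 controls. Of 18727 genes tested, 10399 (55.5%) were called at an adjusted p below 0.05 with edgeR's robust quasi-likelihood test. Calls were nearly balanced, with 5240 genes higher (28.0%) and 5159 lower (27.5%) in the ZNF783 controls. Scaling by library size alone gave 6537 higher and 3817 lower, so the balance rests on the scaling. The differences were mostly small. The median absolute log2 difference was 0.346 among called genes, and 1026 genes (5.48%) were called at 2-fold or more, 701 of them higher (3.74%) and 325 lower (1.74%). Among the 10368 genes averaging 10 CPM or more, 7159 were called, and 76 of these were higher and 31 lower by 2-fold or more. The share called was thus larger at that level than over all genes, and is the closer background for lists of well expressed genes. Several lists below lay near it in total share called. These shares were 70.8% for RNA silencing, 70.6% for lipid synthesis, 71.4% for NRF2, 72.3% for DNA replication and 73.8% for respiratory chain genes. The totals of these lists are no result about them, and their splits by direction are descriptions only. The ranges of the 3 against 3 libraries did not overlap for 11355 genes (60.6%). With every library thinned to the smallest control total, 9246 genes were called. These shares are the background for the counts of list members that follow, and a count near them is not a result about a list. Where values are joined by "against", the ETS1 controls come first, single values being means and sets of 3 the libraries in the order of their replicate numbers.

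**Figure D2:**
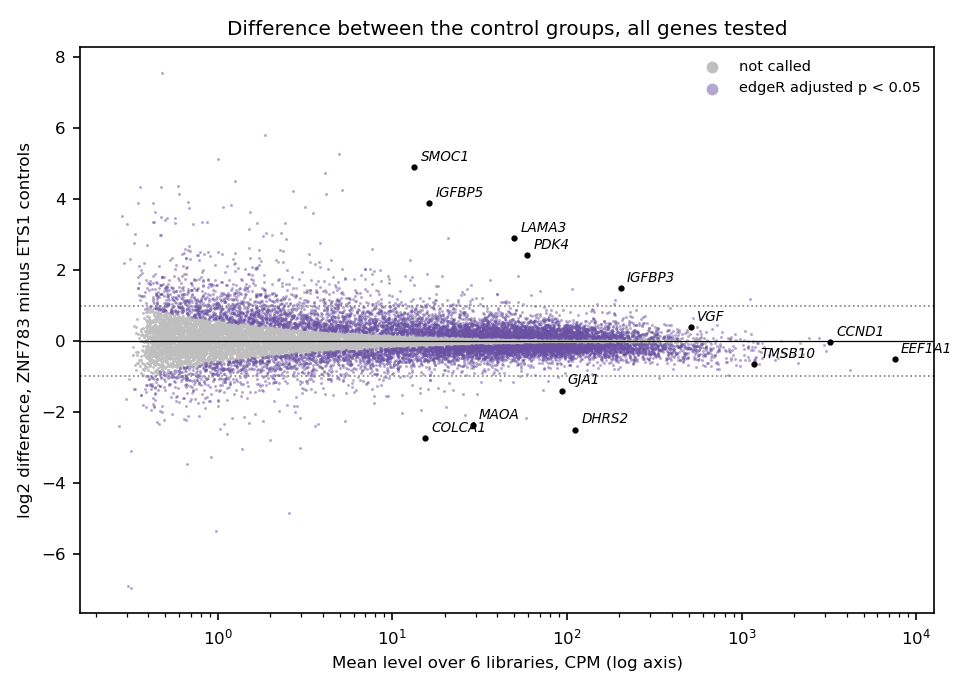
Log2 difference of each tested gene (vertical axis, ZNF783 minus ETS1 controls) against its mean CPM over the 6 libraries (log axis). Called genes are purple, and dotted lines mark 2-fold. Called genes spread to both sides of 0 at every level, and few of the abundant ones pass 2-fold.

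The difference followed the GC content of the transcript. Over 10349 genes of at least 10 CPM, the Spearman correlation of the log2 difference with GC content was 0.475, and with exon length it was -0.0314. Both are descriptions across genes that share the same 6 libraries. The median log2 difference ran from -0.175 in the tenth of genes with the lowest GC content (from 30.2% upward) to 0.258 in the tenth with the highest (61.3% to 74.5%). A refit with offsets for GC content and length called 4358 genes higher (23.9%) and 5353 lower (29.3%) of 18252. Of the 10399 genes called first, 7539 were called again in the same direction and 829 had the opposite sign. For single genes, values with this correction are given below wherever it changed a call, reversed a direction or moved a called difference by over 1.5 times. For lists, smaller changes in the counts are not all given, so a missing value does not mean an unchanged count. Its part in each result was not tested further.

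**Figure D3:**
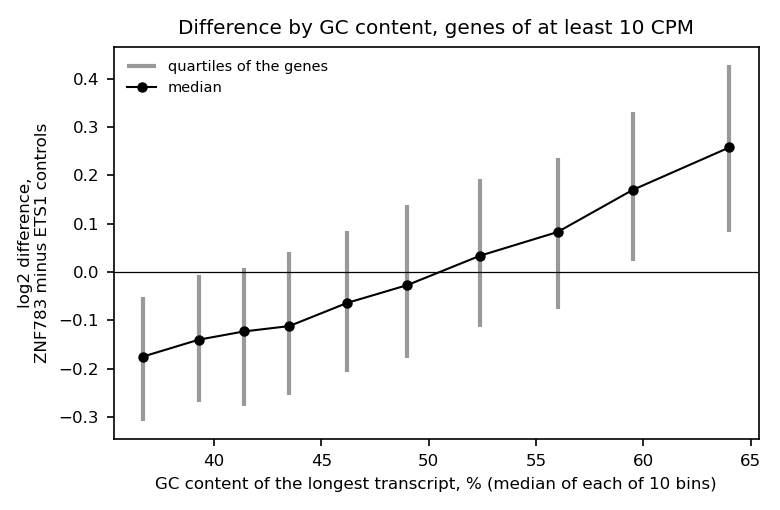
Median log2 difference (points) and quartiles (grey bars) of genes of at least 10 CPM in 10 bins of transcript GC content. The median rises from -0.175 in the lowest bin to 0.258 in the highest.

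Among genes of at least 10 CPM without overlap between the groups, the higher genes were led by SMOC1 and IGFBP5. SMOC1 (ENSG00000198732, chr14:69854131-70032366), which encodes a calcium-binding matrix protein that modulates BMP signalling, had 0.885, 0.826 and 0.883 CPM in the ETS1 controls and 27.04, 25.3 and 25.3 CPM in the ZNF783 controls. It was 29.7-fold higher in the ZNF783 controls, with a log2 difference of 4.89 (SE 0.11, adjusted p = 2.95e-28). IGFBP5 (chr2:216672105-216695525), which encodes a binding protein of insulin-like growth factors, had 2.01, 2.34 and 1.84 CPM in the ETS1 controls and 30.2, 30.9 and 30.01 CPM in the ZNF783 controls. The fold was 14.8 (log2 difference 3.89, SE 0.089, adjusted p = 1.60e-27), and every ZNF783 control lay above every ETS1 control. ANKRD29 (chr18:23598926-23662885) and LAMA3 (chr18:23689443-23956222) are neighbours on chromosome 18. ANKRD29 had 4.39, 5.37 and 5.03 against 37.6, 35.9 and 36.9 CPM, a log2 difference of 2.90 (SE 0.071, adjusted p = 1.61e-26). LAMA3, which encodes the alpha chain of laminin-332, a basement membrane protein, had 11.9, 12.1 and 11.6 CPM in the ETS1 controls and 88.00, 88.2 and 87.9 CPM in the ZNF783 controls, a log2 difference of 2.89 (SE 0.047, adjusted p = 1.25e-31). PDK4, which encodes a kinase that shuts pyruvate dehydrogenase in fasting, had 19.8, 18.2 and 18.1 CPM in the ETS1 controls and 103, 94.04 and 102 CPM in the ZNF783 controls (log2 difference 2.42, SE 0.047, adjusted p = 2.23e-29). All 3 genes were separated between groups by more than 4-fold. The homeobox gene DLX3 was at 4.32 against 20.9 CPM on average (log2 difference 2.27, SE 0.089, adjusted p = 8.98e-21) and the atypical MAP kinase gene MAPK4 at 8.46 against 30.3 CPM (log2 difference 1.83). ITPK1, which encodes an inositol phosphate kinase, had 5.65, 5.51 and 8.44 against 26.9, 28.6 and 19.6 CPM and a log2 difference of 1.89 (SE 0.26, adjusted p = 0.00337). Its replicates spread more than those of the other 11 genes, and its highest adjusted p over the alternatives was 0.0485. The remaining 4 of the 12 highest were SECTM1 (1.82), the pseudokinase gene TRIB2 (1.80), TRIM16 (1.72) and PARP10 (1.72). TRIM16 is uncertain, since 28.7% of its exon length is shared with other genes.

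The 12 lowest genes were led by COLCA1, DHRS2 and MAOA. COLCA1 (chr11:111290787-111305045) had 26.4, 28.3 and 26.1 CPM in the ETS1 controls and 3.58, 3.45 and 4.97 CPM in the ZNF783 controls, a log2 difference of -2.73 (SE 0.092, adjusted p = 4.13e-22). DHRS2 (chr14:23630115-23645639), which encodes a mitochondrial short-chain dehydrogenase, had 193, 184 and 191 CPM in the ETS1 controls and 33.3, 34.7 and 32.7 CPM in the ZNF783 controls, 5.64-fold lower in the ZNF783 controls (log2 difference -2.50, SE 0.039, adjusted p = 5.98e-32). MAOA (chrX:43654907-43746824), which encodes monoamine oxidase A, had 46.9, 49.7 and 48.2 CPM in the ETS1 controls and 8.88, 8.95 and 10.1 CPM in the ZNF783 controls (log2 difference -2.37, SE 0.063, adjusted p = 1.52e-25). In each of these 3 genes the lowest ETS1 control lay far above the highest ZNF783 control. KRT7, a simple epithelial keratin gene, had 17.7, 18.04 and 18.99 against 4.31, 5.37 and 3.91 CPM (log2 difference -2.02, SE 0.094, adjusted p = 8.78e-19). GJA1, which encodes the gap junction protein connexin 43, was abundant and had 138, 137 and 132 against 52.5, 48.4 and 52.4 CPM (log2 difference -1.40, SE 0.038, adjusted p = 3.42e-25). For both the groups did not overlap. The others described were the protein C receptor gene PROCR (log2 difference -2.08), LBH (-1.85), LUM (-1.49), the clock-linked transcription factor gene NFIL3 (-1.46), the adhesion gene MCAM (-1.42) and AZGP1 (-1.38), which encodes a secreted zinc-binding glycoprotein of prostate epithelium.

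**Figure D4:**
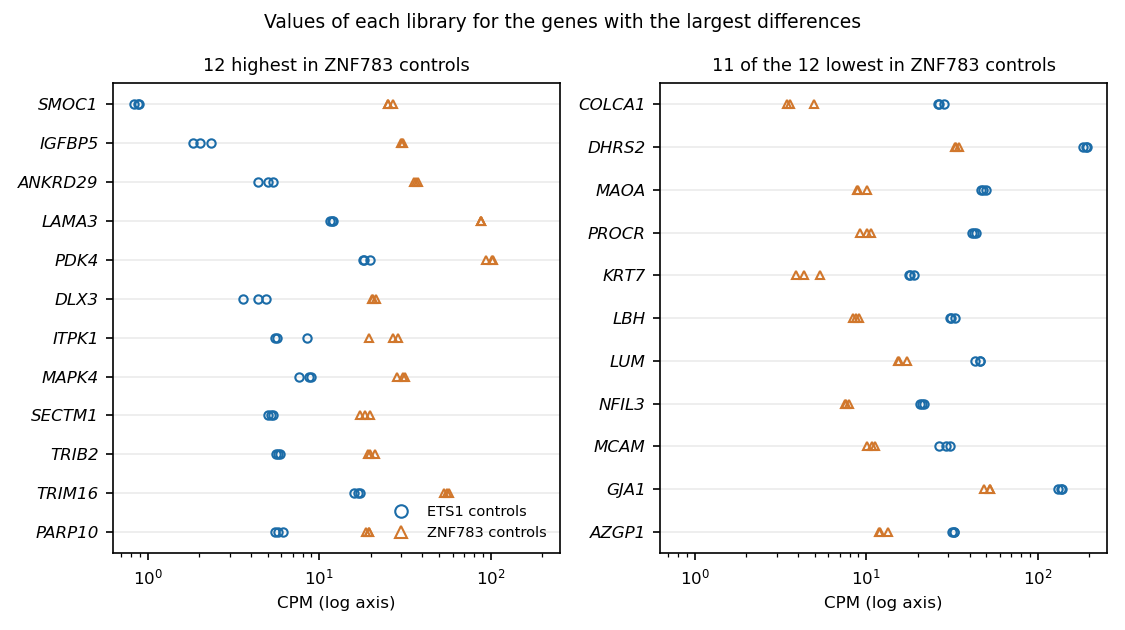
CPM of each library (log axis) for 23 of the 24 called genes of at least 10 CPM that differ most, 12 of them higher in the ZNF783 controls. Circles are ETS1 controls and triangles ZNF783 controls, 3 each. The symbols of the groups do not overlap in any of the 23 genes, and ITPK1 has the widest spread within groups.

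Pioneer factor and steroid receptor genes differed from gene to gene. GATA2, a pioneer factor gene, had 96.4, 96.5 and 106 CPM in the ETS1 controls and 178, 192 and 179 CPM in the ZNF783 controls (log2 difference 0.87, SE 0.038, adjusted p = 4.65e-16). NR3C1, which encodes the glucocorticoid receptor, was at 56.8 against 75.8 CPM (log2 difference 0.42, adjusted p = 3.13e-11). FOXA1 differed little (log2 difference 0.16, SE 0.028, adjusted p = 1.43e-05), and HOXB13 did not pass the test (log2 difference -0.031, SE 0.028, adjusted p = 0.365). Under the GC and length correction, the log2 difference moved to 0.081 for FOXA1. The call of FOXA1 was lost in the fit of all 12 libraries (adjusted p = 0.222).

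Androgen-induced genes were more often lower than higher. Of 31 tested, 9 were higher and 16 lower in the ZNF783 controls, with a median log2 difference of -0.10. With the GC and length correction 9 were higher and 19 lower. KLK2 had 29.8, 32.1 and 31.99 CPM in the ETS1 controls and 20.1, 19.2 and 18.9 CPM in the ZNF783 controls (log2 difference -0.69, SE 0.057, adjusted p = 2.60e-12), and KLK3 had 17.7, 17.8 and 16.9 against 12.7, 15.8 and 12.02 CPM (log2 difference -0.37, SE 0.078, adjusted p = 1.40e-04). For both the groups did not overlap. FKBP5, a cochaperone gene of steroid receptors, was at 798 against 604 CPM (log2 difference -0.40, SE 0.026, adjusted p = 3.82e-15) and STEAP1, a cell surface metalloreductase gene, at 164 against 119.6 CPM (log2 difference -0.46, SE 0.031, adjusted p = 2.58e-14). ELL2, an elongation factor gene, was -0.58 and ZBTB10 -0.40 on the log2 scale. TMPRSS2 did not pass the test (log2 difference -0.10, SE 0.075, adjusted p = 0.269). Genes that androgen represses or that inactivate it gave 3 higher and 5 lower of 11 tested. SI, the intestinal disaccharidase gene, had 6.30, 6.44 and 6.11 against 0.928, 1.46 and 1.29 CPM (log2 difference -2.35, SE 0.16, adjusted p = 1.05e-14), and SLC30A4, a zinc transporter gene, was higher (log2 difference 0.99, SE 0.075, adjusted p = 3.26e-13).

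Epithelial and luminal markers were more often higher than lower in the ZNF783 controls. Of 31 tested epithelial and luminal markers, 17 were higher and 6 lower in the ZNF783 controls, with a median log2 difference of 0.12. CLDN7, a tight junction gene, had 161, 163 and 165 CPM in the ETS1 controls and 250.3, 259.7 and 251 CPM in the ZNF783 controls (log2 difference 0.64, SE 0.029, adjusted p = 3.65e-19). CDH1 was at 569 against 679.5 CPM (log2 difference 0.26, SE 0.026, adjusted p = 2.46e-10) and KRT19 at 450.00 against 589 CPM (log2 difference 0.39, SE 0.031, adjusted p = 5.57e-11). KRT7 and the ETS factor gene EHF went the other way, with EHF at 110.3 against 71.95 CPM (log2 difference -0.62, SE 0.036, adjusted p = 3.48e-16). KRT8 had a small difference (log2 difference 0.091, SE 0.026, adjusted p = 0.00388), and KRT18 did not pass the test (adjusted p = 0.547). All 6 basal markers tested were higher, with a median log2 difference of 0.83, while 9 others were too low to test. A marker low in 1 group can pass the expression filter through the other, so that count supports nothing about the list. CD44, a hyaluronan receptor gene, had 37.4, 36.9 and 34.8 CPM in the ETS1 controls and 77.1, 74.6 and 74.6 CPM in the ZNF783 controls (log2 difference 1.06, SE 0.042, adjusted p = 1.36e-20). KRT15 had 2.93, 2.65 and 3.21 against 10.9, 13.1 and 12.1 CPM (log2 difference 2.02, SE 0.11, adjusted p = 4.08e-17), and LAMB3, the laminin-332 beta chain gene, had 2.08, 1.07 and 1.35 against 5.76, 5.70 and 7.27 CPM (log2 difference 2.07, SE 0.18, adjusted p = 7.07e-10). LAMA3, on no list, was named among the 12 highest genes, so its direction was fixed by that choice. In epithelial markers the calls were 14 higher, 9 lower and a median of 0.068 with the GC and length correction, and 12 higher and 3 lower when all 12 libraries were fitted together. Counts in basal markers stood at 4 higher, 0 lower and a median of 0.87 with the GC and length correction. After correction for GC content and length, the log2 difference changed sign to -0.10 for KRT8 (adjusted p = 7.67e-05). It moved to 0.14 for KRT19. The call of KRT8 was lost in the fit of all 12 libraries (adjusted p = 0.288).

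Neuroendocrine and mesenchymal markers were mixed. Of 18 neuroendocrine markers tested, 7 were higher and 7 lower in the ZNF783 controls. CHGB, the chromogranin B gene, had 15.4, 14.2 and 14.8 against 32.2, 32.1 and 34.2 CPM (log2 difference 1.15, SE 0.058, adjusted p = 7.80e-18), whereas PCSK2, a prohormone convertase gene, was at 6.13 against 2.80 CPM (log2 difference -1.12, SE 0.13, adjusted p = 3.75e-09). VGF had 418, 434 and 469 CPM in the ETS1 controls and 564, 628 and 548 CPM in the ZNF783 controls (log2 difference 0.40, SE 0.072, adjusted p = 0.00759). Of 14 mesenchymal markers tested, 6 were higher and 3 lower in the ZNF783 controls. As for basal markers, a member such as SNAI2 could pass the filter through the group where it was higher. That count therefore supports nothing about the list. FN1, the fibronectin gene, was at 52.97 against 36.3 CPM (log2 difference -0.54, SE 0.045, adjusted p = 2.13e-12), and SNAI2, which encodes a repressor of epithelial genes, had 0.204, 0.31 and 0.27 against 1.33, 1.26 and 1.90 CPM at low counts (log2 difference 2.51, SE 0.30, adjusted p = 1.09e-08). Among fibroblast markers, LUM was at 44.9 against 15.98 CPM (log2 difference -1.49) and COL1A1 at 14.9 against 26.5 CPM (log2 difference 0.82, adjusted p = 4.05e-13). Summed fibroblast TPM ran from 68.01 to 72.3 in the ETS1 controls and from 35.6 to 38.8 in the ZNF783 controls, most of it LUM, and its part in other results was not tested. The leukocyte markers CD4 (log2 difference 0.59, SE 0.40, adjusted p = 0.227) and CD14 (log2 difference 0.83, SE 0.42, adjusted p = 0.0978) were not called. The counts for neuroendocrine markers were 4 higher, 8 lower and a median of -0.043 with the GC and length correction. For mesenchymal markers the calls became 5 higher, 4 lower and a median of 0.069 with the GC and length correction, and 4 higher and 3 lower when all 12 libraries were fitted together. Once GC content and length were corrected for, the log2 difference changed sign to -0.081 for VGF (adjusted p = 0.00729).

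Genes of protein synthesis were mostly lower in the ZNF783 controls. Of 78 cytosolic ribosomal protein genes, all of them tested, 68 were lower and 0 higher, with a median log2 difference of -0.50. They held 4.65% ± 0.153 of counts in the ETS1 controls and 3.46% ± 0.109 in the ZNF783 controls (SD, n = 3). RPL6, a protein of the large subunit, had 1223, 1220.4 and 1209.9 CPM in the ETS1 controls and 769.9, 741 and 729 CPM in the ZNF783 controls (log2 difference -0.71, SE 0.026, adjusted p = 1.08e-21). RPSA, of the small subunit, had 1516, 1503 and 1574 CPM in the ETS1 controls and 985, 966 and 965 CPM in the ZNF783 controls (log2 difference -0.66, SE 0.025, adjusted p = 4.30e-21). Every ETS1 control lay above every ZNF783 control in both. RPL7 (log2 difference -0.79, SE 0.028, adjusted p = 1.40e-21) and RPL5 (log2 difference -0.62, SE 0.027, adjusted p = 1.26e-19) were also lower. Ribosomal proteins have many processed pseudogenes, and reads shared with those copies make single levels uncertain. Of 32 tested genes of MYC and ribosome biogenesis, 10 were higher and 16 lower in the ZNF783 controls. The nucleolar protein genes NPM1 and NCL were at 979 against 653 CPM (log2 difference -0.58, SE 0.026, adjusted p = 1.64e-19) and 1262 against 915 CPM (log2 difference -0.46, SE 0.027, adjusted p = 7.58e-16), and MYC at 194 against 155 CPM (log2 difference -0.33, SE 0.030, adjusted p = 3.85e-11). In ribosome biogenesis the calls were 5 higher, 22 lower and a median of -0.17 with the GC and length correction, and 4 higher and 13 lower when all 12 libraries were fitted together.

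Nuclear-encoded respiratory chain subunits gave 4 higher and 27 lower of 42, with a median log2 difference of -0.17. UQCRB, of complex III, was at 200.02 against 148 CPM (log2 difference -0.43, SE 0.031, adjusted p = 7.03e-14) and ATP5F1B, the catalytic beta subunit of ATP synthase, at 2533 against 1979.5 CPM (log2 difference -0.36, SE 0.023, adjusted p = 4.73e-15). Of 34 tested genes of glycolysis and the hypoxia response, 6 were higher and 19 lower in the ZNF783 controls, with a median log2 difference of -0.19. LDHA, the lactate dehydrogenase gene, had 1041, 1031 and 1045 CPM in the ETS1 controls and 715, 699 and 723 CPM in the ZNF783 controls (log2 difference -0.54, SE 0.025, adjusted p = 5.28e-19). PFKFB3, which sets the level of a glycolytic activator, was at 96.7 against 58.6 CPM (log2 difference -0.73, SE 0.038, adjusted p = 2.42e-17), and PGK1 at 704 against 530.4 CPM (log2 difference -0.41, SE 0.026, adjusted p = 2.30e-15). The mitochondrially encoded genes have 0 counts in all libraries and are not analysed here. Counts in respiratory chain subunits stood at 4 higher and 31 lower with the GC and length correction. They were 1 higher and 10 lower when all 12 libraries were fitted together. The counts for glycolysis were 6 higher, 26 lower and a median of -0.28 with the GC and length correction. They were 4 higher and 17 lower when all 12 libraries were fitted together. The call of ATP5F1B was lost in the fit of all 12 libraries (adjusted p = 0.0665).

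Lipid synthesis genes were split, with 10 of 34 tested higher and 14 lower. SCD, the fatty acid desaturase gene, had 515, 513 and 519 CPM in the ETS1 controls and 303, 294 and 293 CPM in the ZNF783 controls (log2 difference -0.80, SE 0.027, adjusted p = 1.35e-22). HMGCS1, of cholesterol synthesis, was at 211 against 138 CPM (log2 difference -0.61, SE 0.031, adjusted p = 6.85e-18) and SREBF1, which encodes a regulator of lipid genes, at 292 against 219.7 CPM (log2 difference -0.41, SE 0.030, adjusted p = 9.61e-14). Of 24 tested heat shock and chaperonin genes, 3 were higher and 16 lower in the ZNF783 controls, with a median log2 difference of -0.25. HSPA8, the constitutive Hsp70 gene, had 2543, 2491 and 2560.2 CPM in the ETS1 controls and 1667, 1659 and 1647 CPM in the ZNF783 controls (log2 difference -0.61, SE 0.023, adjusted p = 4.68e-21), and HSPD1, the mitochondrial chaperonin gene, was at 2271 against 1735 CPM (log2 difference -0.39, SE 0.025, adjusted p = 4.87e-15). Both genes were separated between the groups. For cholesterol and fatty acid synthesis the calls became 6 higher, 18 lower and a median of -0.11 with the GC and length correction. In heat shock and chaperonin genes the calls were 0 higher, 18 lower and a median of -0.22 with the GC and length correction, and 1 higher and 14 lower when all 12 libraries were fitted together. After correction for GC content and length, the log2 difference moved to -0.72 for SREBF1.

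Genes of DNA replication were mostly lower in the ZNF783 controls, and mitotic genes were balanced. Of 47 tested replication genes of G1/S, 2 were higher and 32 lower in the ZNF783 controls, with a median log2 difference of -0.22. The licensing factor gene MCM10 was at 103 against 74.98 CPM (log2 difference -0.46, SE 0.037, adjusted p = 1.33e-12), the ligase gene LIG1 at 107.2 against 80.9 CPM (log2 difference -0.41, SE 0.035, adjusted p = 7.69e-12) and the sliding clamp gene PCNA at 335 against 283 CPM (log2 difference -0.24, SE 0.028, adjusted p = 5.38e-09). SLBP, which encodes a histone mRNA binding protein, was at 207 against 162 CPM (log2 difference -0.35, SE 0.029, adjusted p = 2.96e-12). Of 42 G2 and mitosis genes, 13 were higher and 14 lower in the ZNF783 controls, with a median log2 difference of 0.017, whose sign changed without the expression filter and without ZNF783 control replicate 2. The phosphatase gene CDC25B (log2 difference 0.50, SE 0.031, adjusted p = 2.10e-15) and the kinase gene PLK1 (log2 difference 0.33, SE 0.031, adjusted p = 4.92e-11) were higher, whereas CENPE, a kinetochore motor gene (log2 difference -0.42, SE 0.035, adjusted p = 4.38e-12), and HMMR (log2 difference -0.33, SE 0.033, adjusted p = 2.61e-10) were lower. Counts in replication genes stood at 1 higher and 39 lower with the GC and length correction. They were 0 higher and 23 lower when all 12 libraries were fitted together. The counts for G2 and mitosis were 13 higher, 9 lower and a median of 0.035 with the GC and length correction, and 8 higher and 5 lower when all 12 libraries were fitted together. Once GC content and length were corrected for, the log2 difference moved to 0.29 for CDC25B, -0.26 for CENPE, 0.16 for PLK1 and -0.16 for HMMR. The calls of CENPE and HMMR were lost in the fit of all 12 libraries (adjusted p in that order 0.0722 and 0.0585).

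Many genes of the G1/S group are regulated by E2F factors, whose sites lie close to the start of transcription. The 250 bases before each start were searched on both strands for TTTGGCGC and TTTCGCGC, in RefSeq promoters of GRCh38.p14. Of the 47 members, 40 matched, and 5 of these (12.5%) held a match, against 0.996% of 27305 promoters. The 2 with the strongest differences among the 5 are shown because they carry a match and were lower in the ZNF783 controls. They are MCM6 at chr2:135876444-135876693 on the minus strand, and POLA1 at chrX:24693668-24693917 on the plus strand. Matches are in capitals, and GCGCCAAA or GCGCGAAA is the reverse complement of a motif. In MCM6 each capital run holds both motifs, overlapping on opposite strands.
MCM6: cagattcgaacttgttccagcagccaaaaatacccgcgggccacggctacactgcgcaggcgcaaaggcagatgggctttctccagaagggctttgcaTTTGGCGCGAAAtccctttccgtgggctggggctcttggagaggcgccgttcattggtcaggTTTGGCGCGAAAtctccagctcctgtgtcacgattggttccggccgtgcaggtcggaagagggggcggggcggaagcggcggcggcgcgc
POLA1: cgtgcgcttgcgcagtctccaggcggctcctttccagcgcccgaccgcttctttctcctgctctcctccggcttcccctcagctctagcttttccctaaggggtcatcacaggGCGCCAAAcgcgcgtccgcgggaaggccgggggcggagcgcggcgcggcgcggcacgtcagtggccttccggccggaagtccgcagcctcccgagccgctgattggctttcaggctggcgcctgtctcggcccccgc
MCM6, a subunit of the replicative helicase, had 156, 155 and 153 CPM in the ETS1 controls and 126, 117 and 122 CPM in the ZNF783 controls (log2 difference -0.34, SE 0.032, adjusted p = 6.20e-11). POLA1, the catalytic subunit gene of DNA polymerase alpha, had 82.8, 82.1 and 78.3 CPM in the ETS1 controls and 62.5, 60.9 and 65.1 CPM in the ZNF783 controls (log2 difference -0.36, SE 0.039, adjusted p = 1.12e-09). The other 3 members with a match were MCM7 (-0.25), POLE (-0.034, adjusted p = 0.329) and POLA2 (-0.092, adjusted p = 0.34), of which the last 2 were not called. A match is a description of these letters, not evidence of binding, and the motif was chosen after the values were seen. Under the GC and length correction, the log2 difference moved to -0.43 for MCM7. The call of MCM7 was lost in the fit of all 12 libraries (adjusted p = 0.0512).

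The RB list of regulators gave 7 higher and 12 lower of 30 tested. E2F8, which encodes a repressor of E2F targets, had 30.9, 30.9 and 31.5 against 20.7, 18.7 and 20.9 CPM (log2 difference -0.63, SE 0.057, adjusted p = 1.97e-11). LIN54, of the DREAM complex, was at 51.3 against 82.1 CPM (log2 difference 0.68, SE 0.041, adjusted p = 8.18e-16), CCND3 at 54.2 against 71.1 CPM (log2 difference 0.39, SE 0.039, adjusted p = 1.94e-10) and CDK2 at 190.2 against 153 CPM (log2 difference -0.32, SE 0.030, adjusted p = 9.11e-11). RB1 had 113, 112 and 107.3 CPM in the ETS1 controls and 104, 96.96 and 97.98 CPM in the ZNF783 controls (log2 difference -0.15, SE 0.035, adjusted p = 4.91e-04). CDK4 (log2 difference -0.17, SE 0.034, adjusted p = 7.11e-05) and CDK6 (log2 difference -0.10, SE 0.030, adjusted p = 0.00778) had small differences. CDKN2A (log2 difference 0.11, SE 0.050, adjusted p = 0.0723) did not pass the test. For the RB list the calls became 6 higher and 14 lower with the GC and length correction. They were 5 higher and 8 lower when all 12 libraries were fitted together. With the GC and length correction the log2 difference changed sign to 0.028 for CDK6 (adjusted p = 0.323). It was no longer called at -0.0044 for RB1 (adjusted p = 0.918). It moved to -0.26 for CDK4 and 0.22 for CCND3. The calls of RB1, CDK4 and CDK6 were lost in the fit of all 12 libraries (adjusted p in that order 0.307, 0.445 and 0.455).

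Single stress response genes are given as values, with no count of a list. CDKN1A, which encodes the CDK inhibitor p21, had 284, 275 and 290.3 CPM in the ETS1 controls and 234, 238 and 225 CPM in the ZNF783 controls (log2 difference -0.28, SE 0.030, adjusted p = 5.45e-10). EDA2R, a receptor gene, was at 19.6 against 10.2 CPM (log2 difference -0.93, SE 0.071, adjusted p = 3.13e-13) and CCNG1, the cyclin G1 gene, at 189 against 128 CPM (log2 difference -0.56, SE 0.031, adjusted p = 1.07e-16). GDF15, a stress cytokine gene, went the other way with 17.8, 17.7 and 18.8 against 41.9, 45.7 and 40.1 CPM (log2 difference 1.23, SE 0.056, adjusted p = 4.48e-19). Of 27 prostate tumour suppressor and driver genes, 6 were higher and 10 lower in the ZNF783 controls. The kinase gene ATM was at 91.5 against 73.8 CPM (log2 difference -0.31, SE 0.038, adjusted p = 1.64e-08). In prostate drivers the calls were 10 higher, 13 lower and a median of -0.040 with the GC and length correction, and 3 higher and 6 lower when all 12 libraries were fitted together. After correction for GC content and length, the log2 difference moved to -0.45 for CDKN1A and -0.18 for ATM.

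Genes of amino acid supply were mostly higher in the ZNF783 controls. Of 38 tested members of the ATF4 list, which covers the transcriptional response to amino acid shortage, 25 were higher and 5 lower in the ZNF783 controls, with a median log2 difference of 0.30. SLC7A5, a leucine transporter gene, had 261, 260.3 and 275 CPM in the ETS1 controls and 506, 526 and 495 CPM in the ZNF783 controls (log2 difference 0.94, SE 0.029, adjusted p = 1.14e-23). PCK2, the mitochondrial phosphoenolpyruvate carboxykinase gene, had 95.9, 96.4 and 100.1 CPM in the ETS1 controls and 205, 208 and 189 CPM in the ZNF783 controls (log2 difference 1.04, SE 0.034, adjusted p = 2.68e-22). PHGDH, the first enzyme gene of serine synthesis, was at 212 against 337 CPM (log2 difference 0.67, SE 0.029, adjusted p = 1.88e-19), PSAT1 at 300.5 against 415 CPM (log2 difference 0.47, SE 0.027, adjusted p = 4.11e-16) and SLC38A2, a neutral amino acid transporter gene, at 709 against 845 CPM (log2 difference 0.25, SE 0.026, adjusted p = 3.18e-10). DDIT4, which encodes an inhibitor of mTORC1, went the other way with 119.8, 118 and 120.4 against 60.1, 61.04 and 57.2 CPM (log2 difference -1.01, SE 0.037, adjusted p = 1.16e-21). ATF4 mRNA did not pass the test (log2 difference -0.016, SE 0.030, adjusted p = 0.676). Counts in the ATF4 list stood at 22 higher and 3 lower when all 12 libraries were fitted together. Once GC content and length were corrected for, the log2 difference moved to 0.39 for SLC38A2.

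ATF4 binds composite elements with the core TGATGNAA in the promoters of several of these genes. Of the 38 members, 31 matched a RefSeq promoter, and 4 (12.9%) held this core in the 250 bases before the start on either strand, against 3.19% of 27305 promoters. The list was made up of ATF4 targets and amino acid supply genes, so a higher share is built in. It says nothing about this contrast, and a match is not evidence of binding. CHAC1 and ASNS, both known ATF4 targets, are shown because their elements match and their differences have opposite signs. They are CHAC1 at chr15:40953221-40953470 on the plus strand, and ASNS at chr7:97872409-97872658 on the minus strand. The element is in capitals.
CHAC1: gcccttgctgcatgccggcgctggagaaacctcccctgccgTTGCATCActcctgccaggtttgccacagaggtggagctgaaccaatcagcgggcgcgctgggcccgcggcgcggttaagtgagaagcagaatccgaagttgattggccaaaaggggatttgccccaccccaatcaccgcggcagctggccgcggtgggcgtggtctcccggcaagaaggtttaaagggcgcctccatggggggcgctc
ASNS: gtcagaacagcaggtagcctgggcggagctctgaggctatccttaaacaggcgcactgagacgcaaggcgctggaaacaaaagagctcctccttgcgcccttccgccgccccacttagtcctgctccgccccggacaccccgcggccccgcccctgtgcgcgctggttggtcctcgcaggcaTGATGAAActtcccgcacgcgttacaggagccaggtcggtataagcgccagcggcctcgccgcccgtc
CHAC1, which encodes a glutathione-degrading enzyme, had 127, 127 and 132 CPM in the ETS1 controls and 80.7, 80.7 and 80.8 CPM in the ZNF783 controls and was lower (log2 difference -0.67, SE 0.034, adjusted p = 8.15e-18). ASNS, the asparagine synthetase gene, had 8.21, 9.54 and 9.30 CPM in the ETS1 controls and 12.1, 11.6 and 10.7 CPM in the ZNF783 controls and was higher (log2 difference 0.34, SE 0.085, adjusted p = 0.00108). Exons of ASNS are overlapped by other genes over 44.6% of their length, so its level is uncertain. The other 2 were AARS1 (0.14, adjusted p = 1.70e-05) and ATF3 (0.059, adjusted p = 0.276), and ATF3 was not called. Under the GC and length correction, the log2 difference was no longer called at 0.023 for AARS1 (adjusted p = 0.355). The call of AARS1 was lost in the fit of all 12 libraries (adjusted p = 0.109).

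Immediate early and AP-1 genes were mostly higher. Of 34 tested, 23 were higher and 4 lower in the ZNF783 controls, with a median log2 difference of 0.47. DUSP4, a phosphatase gene that limits ERK, had 11.9, 13.2 and 13.3 CPM in the ETS1 controls and 30.02, 28.4 and 27.2 CPM in the ZNF783 controls (log2 difference 1.15, SE 0.064, adjusted p = 1.01e-16). FOSL2, an AP-1 subunit gene, was at 24.8 against 42.02 CPM (log2 difference 0.76, SE 0.050, adjusted p = 1.06e-14), JUNB at 73.4 against 111 CPM (log2 difference 0.59, SE 0.040, adjusted p = 9.75e-14), JUND at 75.04 against 103 CPM (log2 difference 0.46, SE 0.066, adjusted p = 3.28e-04), DUSP1 at 60.1 against 90.4 CPM (log2 difference 0.59, SE 0.039, adjusted p = 1.03e-14) and SPRED2 at 61.8 against 93.6 CPM (log2 difference 0.60, SE 0.040, adjusted p = 1.07e-14). The ER list, of unfolded protein response and chaperone genes, gave 15 higher and 7 lower of 29. XBP1, a transcription factor gene of that response, was at 212 against 345 CPM (log2 difference 0.70, SE 0.028, adjusted p = 1.20e-20), whereas ERO1B was at 80.5 against 48.2 CPM (log2 difference -0.74, SE 0.042, adjusted p = 1.80e-16) and HSP90B1 at 1709 against 1306 CPM (log2 difference -0.39, SE 0.024, adjusted p = 2.23e-15). HSPA5, the main ER chaperone gene, did not pass the test (log2 difference 0.0069, SE 0.025, adjusted p = 0.835). The NRF2 list gave 5 higher and 15 lower of 28, with NQO1, a quinone reductase gene, at 236 against 137 CPM (log2 difference -0.79, SE 0.030, adjusted p = 4.58e-21) and SLC7A11, a cystine transporter gene, at 142 against 233 CPM (log2 difference 0.72, SE 0.046, adjusted p = 1.95e-08). The counts for the immediate early list were 19 higher, 6 lower and a median of 0.26 with the GC and length correction. For the ER list the calls became 11 higher, 12 lower and a median of 0.012 with the GC and length correction, and 9 higher and 6 lower when all 12 libraries were fitted together. In the NRF2 list the calls were 4 higher and 9 lower when all 12 libraries were fitted together. With the GC and length correction the log2 difference was no longer called at 0.013 for JUND (adjusted p = 0.778). It moved to 0.27 for JUNB.

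**Figure D5:**
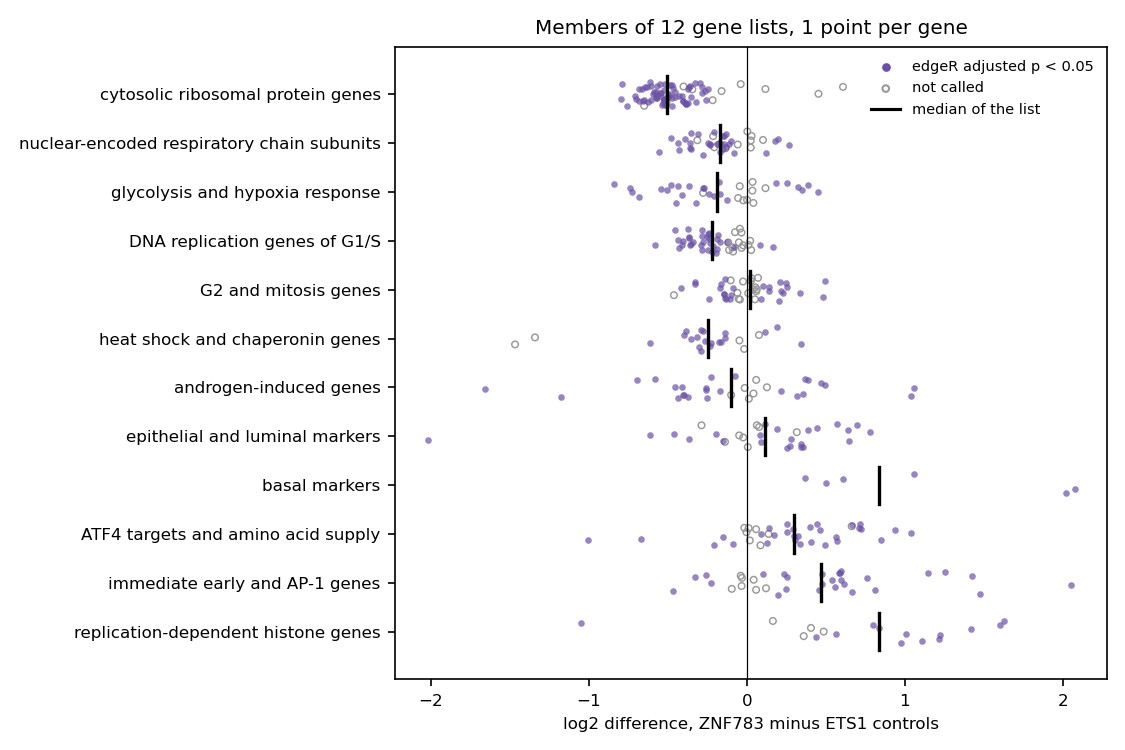
Log2 difference of each tested member of 12 gene lists (1 point per gene), with the list's median as a bar. Called members are purple. Ribosomal protein genes lie almost wholly left of 0 (median -0.50), and tested immediate early genes lie mostly to the right. Tested basal (6 of 15) and histone (17 of 59) genes also lie mostly to the right. Those could pass the expression filter through the group where they were higher, so their positions support nothing about these 2 lists.

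Receptor, BMP and ETS genes held several large folds at low counts. BMP7, a ligand of bone morphogenetic protein receptors, had 0.272, 0.241 and 0.221 CPM in the ETS1 controls and 10.5, 9.28 and 9.05 CPM in the ZNF783 controls, from 7 to 9 counts per library in the ETS1 controls (log2 difference 5.28, SE 0.18, adjusted p = 3.48e-22). KIT, a receptor tyrosine kinase gene, had 0.715, 0.413 and 0.442 CPM in the ETS1 controls and 8.61, 10.1 and 10.8 CPM in the ZNF783 controls (log2 difference 4.24, SE 0.17, adjusted p = 1.38e-20). Both were under 1 CPM in every ETS1 control and above 8 CPM in every ZNF783 control. Of 27 tested BMP, TGF-beta and ID genes, 13 were higher and 5 lower in the ZNF783 controls. Members of the BMP, receptor and ETS lists, such as BMP7, could pass the filter through the group where they were higher. The counts of these lists therefore support nothing about the lists. ID1 and ID3, targets of BMP signalling, were at 152 against 226 CPM (log2 difference 0.57, SE 0.032, adjusted p = 2.96e-16) and 327 against 444 CPM (log2 difference 0.44, SE 0.030, adjusted p = 1.28e-13), and TGFB1 at 18.9 against 32.7 CPM (log2 difference 0.78, SE 0.060, adjusted p = 5.23e-13). Of 30 tested receptor genes, 17 were higher and 6 lower in the ZNF783 controls. ERBB2 had 91.7, 90.6 and 98.5 against 161, 168 and 159.6 CPM (log2 difference 0.80, SE 0.035, adjusted p = 2.49e-19), whereas EGFR (log2 difference -0.14, SE 0.027, adjusted p = 3.40e-05) and ERBB3 (log2 difference -0.16, SE 0.027, adjusted p = 1.07e-05) were slightly lower. The ETS family gave 11 higher and 5 lower of 22 tested. ETS2 had 14.1, 13.6 and 14.5 CPM in the ETS1 controls and 38.4, 39.96 and 39.7 CPM in the ZNF783 controls (log2 difference 1.48, SE 0.055, adjusted p = 2.76e-21) and ETV5 had 15.02, 15.7 and 14.8 against 32.7, 30.4 and 33.98 CPM (log2 difference 1.10, SE 0.059, adjusted p = 4.22e-17). ELF5 was lower, at 76.7 against 46.3 CPM (log2 difference -0.72, SE 0.042, adjusted p = 3.07e-16). The highest ETS gene by level was SPDEF at 248 TPM (log2 difference 0.22, SE 0.036, adjusted p = 3.78e-06). Counts in the BMP list stood at 16 higher, 3 lower and a median of 0.15 with the GC and length correction, and 11 higher and 2 lower when all 12 libraries were fitted together. The counts for receptors were 14 higher, 7 lower and a median of 0.16 with the GC and length correction, and 15 higher and 4 lower when all 12 libraries were fitted together. For ETS family factors the calls became 8 higher, 6 lower and a median of 0.025 with the GC and length correction, and 8 higher and 3 lower when all 12 libraries were fitted together. After correction for GC content and length, the log2 difference changed sign to -0.10 for SPDEF (adjusted p = 0.00426). It moved to -0.27 for ERBB3 and 0.49 for TGFB1. The call of EGFR was lost in the fit of all 12 libraries (adjusted p = 0.113).

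Tested interferon-stimulated genes were more often higher than lower. Of 28 tested interferon-stimulated genes, 15 were higher and 4 lower in the ZNF783 controls, with a median log2 difference of 0.28. Another 9 were not tested. OAS3, a sensor gene of double-stranded RNA, had 18.2, 19.2 and 17.5 against 37.97, 39.04 and 35.8 CPM (log2 difference 1.04, SE 0.056, adjusted p = 4.03e-17) and ISG15 was at 57.2 against 71.6 CPM (log2 difference 0.32, SE 0.041, adjusted p = 4.79e-08), whereas EIF2AK2 was lower (log2 difference -0.32, SE 0.033, adjusted p = 3.80e-10). Of 18 antigen presentation genes 10 were not tested, and of the 8 tested, 7 were higher and 0 lower in the ZNF783 controls. Summed over all 18, their TPM ran from 118 to 124 in the ETS1 controls and from 197 to 207 in the ZNF783 controls, with HLA-C at 36.7 against 61.8 CPM (log2 difference 0.75, SE 0.050, adjusted p = 1.69e-13). HLA genes share sequence with one another, and their single levels are uncertain. Of 17 tested replication-dependent histone genes out of 59, 12 were higher and 1 lower in the ZNF783 controls, with a median log2 difference of 0.84. H2AC6 had 6.03, 5.47 and 6.38 against 16.8, 15.6 and 15.8 CPM (log2 difference 1.42, SE 0.084, adjusted p = 5.26e-16), and the list as a whole held 0.00417% ± 2.30e-04 of counts against 0.00785% ± 3.21e-04 (SD, n = 3). Another 42 histone genes were not tested. As for basal markers, interferon-stimulated, antigen presentation and histone genes could pass the filter through the group where they were higher. Their counts therefore support nothing about the lists. Histone copies are near-identical, so counts can be split among them. Once GC content and length were corrected for, the log2 difference moved to 0.088 for ISG15, -0.20 for EIF2AK2 and 0.48 for HLA-C. The call of ISG15 was lost in the fit of all 12 libraries (adjusted p = 0.208).

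In the zinc finger cluster around ZNF783 on chromosome 7, 10 of 14 genes were higher and 2 lower, with a median log2 difference of 0.30. ZNF467 was at 18.2 against 31.7 CPM (log2 difference 0.80, SE 0.062, adjusted p = 7.00e-13) and ATP6V0E2, a proton pump subunit gene, at 92.8 against 134 CPM (log2 difference 0.53, SE 0.035, adjusted p = 8.20e-15), while EZH2, a chromatin repressor gene in the same region, was at 197 against 151 CPM (log2 difference -0.39, SE 0.030, adjusted p = 5.77e-13). Circadian clock genes gave 6 higher and 10 lower of 21. PER1 was at 34.6 against 59.98 CPM (log2 difference 0.79, SE 0.044, adjusted p = 1.27e-16) and PER3 at 9.87 against 4.30 CPM (log2 difference -1.20, SE 0.10, adjusted p = 6.00e-12), and NFIL3, among the 12 lowest genes, had 20.6, 21.7 and 21.2 against 7.89, 7.62 and 7.55 CPM. Of 24 genes of microRNA and RNA silencing machinery, 3 were higher and 14 lower in the ZNF783 controls. TNRC6A, a scaffold gene of that machinery, was at 159.8 against 106.6 CPM (log2 difference -0.58, SE 0.032, adjusted p = 6.00e-17) and AGO2, the slicer Argonaute gene through which siRNAs act, at 318 against 289 CPM (log2 difference -0.14, SE 0.027, adjusted p = 6.46e-05). DIO2, which encodes the enzyme that activates thyroid hormone, had 10.5, 10.6 and 10.3 against 19.7, 20.5 and 22.1 CPM (log2 difference 0.99, SE 0.070, adjusted p = 4.06e-14), and its groups did not overlap. In the zinc finger cluster the calls were 5 higher, 3 lower and a median of 0.10 with the GC and length correction. Counts in circadian clock genes stood at 6 higher, 12 lower and a median of -0.19 with the GC and length correction. The counts for RNA silencing were 1 higher and 7 lower when all 12 libraries were fitted together. Under the GC and length correction, the log2 difference moved to 0.49 for PER1 and 0.41 for ZNF467.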

How the data were processed

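RNA was measured by sequencing in 6 control libraries of 22Rv1, 3 per experiment. The deposited tables hold raw counts for each gene. Per the file headers, the authors counted paired-end alignments over exons by gene identifier with featureCounts 2.0.1 and a GRCh38 annotation of release 107, with no strand option, so overlapping genes on opposite strands are not told apart. Alignment names end in "hisat", and the submitters' processing notes name the build hg38. No aligner version was found in the labels or headers.

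The 2 tables were joined by identifier (61860 genes, 42155 of them with a symbol), and no column of values was left unmapped. Exon length and coordinates (1-based, GRCh38) came from GENCODE release 29, which covered 99.83% of counts. Genes were kept by edgeR's default filter (edgeR 4.0.16, R 4.3.3), scaled by TMM and tested with a robust quasi-likelihood F test with Benjamini-Hochberg adjustment over all genes tested, called at an adjusted p below 0.05. Standard errors come from the F statistic. Total counts per library ran from 14763408 to 41966577; floors of 3 counts cover counting error only, because PCR copies of a molecule are not independent reads. No replicate pair agreed within sampling noise by a chi-square test of counts (1.359 to 2.932 per degree of freedom within groups), and none was merged. The fit was tested on simulated data for the same comparison (18715 genes), where it recovered 28 of 50 genes changed by 0.3 on the log2 scale, 45 of 50 at 0.6, 45 of 50 at 1 and 50 of 50 at 2, with 3 unchanged genes called. Small differences were thus often missed in the simulation. Only 200 genes were changed in it, far fewer than were called here, so its recovery may not carry over to this contrast.

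The libraries were chosen by the labels. The gene lists and the genes named were chosen with earlier results of these data known. Named genes are the 12 highest and 12 lowest called genes of at least 10 CPM without overlap between groups (clone-based, LINC, LOC, antisense, MIR host, pseudogene and Y-linked symbols and XIST left out), the 15 most abundant protein-coding genes, a fixed set of 23 prostate, cell cycle and stress genes, and up to 4 members per list by level and 4 by adjusted p. Genes named for a promoter match or as cell type markers were added after their values were seen. Not every gene the rule picks is described, and some genes and lists are not reported here. Lists are described by counts and medians, with no set test. Alternatives were other scalings and filters, DESeq2 1.42.0, limma-voom (limma 3.58.1), a replicate block, all 12 libraries in one fit, thinning to equal depth, correction for GC content and length, and leaving out each library.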

Additional observations from a re-analysis of the deposited data

How the results depend on the processing

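The number of genes called stayed within 1.5 times of 10399 under every alternative run, from 7240 with all 12 libraries in one fit and 8033 by the DESeq2 Wald test to 10476 without the expression filter, and it was 9611 to 10047 when each library was left out in turn. The number called at 2-fold or more, 1026, was 668 with a 1 CPM filter, met in 3 or more libraries, which tests fewer genes, 1496 without the expression filter and 1007 to 1291 without each library in turn. Thinning every library to the smallest total gave 9246 calls. The replicate numbers did not pair the groups, since correlations of same-numbered deviations were 0.00328, -0.217 and -0.232, and the replicate block gave 9959 calls. The count of genes at 1 TPM was 11805 at a level of 2 TPM and 13736 at 1 TPM in any library. Of 247 genes tested among those the rules pick, 180 kept direction and side of the threshold under all 17 alternatives, and 37 lost their call with all 12 libraries in one fit. Signs reversed with the GC and length correction to -0.082 for ACTG1, -0.044 for ACTB, -0.10 for KRT8, 0.028 for CDK6, -0.081 for VGF, -0.034 for ENO2, -0.10 for SPDEF, -0.20 for ERF, -0.030 for FGFR3, 0.051 for CLOCK and -0.0075 for ZNF282, and with library size alone to 0.0049 for FASN. Library size alone shifted the median of all genes by 0.0721. Medians near 0 also changed sign: with library size alone those of neuroendocrine markers (0.028), the RB list (0.029), prostate drivers (0.0487) and lipid synthesis (0.0501). Without the expression filter that of G2 and mitosis genes (-0.0284) did so, as did neuroendocrine markers after thinning (0.00876), G2 and mitosis genes without ZNF783 control replicate 2 (-0.00635) and lipid synthesis without ZNF783 control replicate 3 (0.00818). The cause was not tested for these changes. Depth limits genes near the floor of 0.0715 to 0.203 CPM.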

Other observations

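By gene type, the median log2 difference of processed pseudogenes was -0.231 over 760 genes tested, or -0.119 with the GC and length correction, against 0.00556 over 13961 protein-coding genes. Long intergenic RNAs had a median of 0.0481 over 939 genes, and 0.0956 with the correction.

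By chromosome, medians ran from -0.0961 on chromosome 13 (176 genes) to 0.114 on chromosome 16 (469 genes). The median GC content of the genes was 41.5% and 54.9% on these. With the correction they were -0.024 and -0.0228, and the chromosome medians then ran from -0.115 on chromosome 19 to 0.058 on chromosome 18.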
